A study of Mus musculus with 8 samples.

Results

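Tmem170b, Gk, Map3k2, Nup153 and Taf4b are 5 protein-coding mouse genes whose read counts were lower in libraries from cells fed the nucleoside 4-thiouridine (s4U) than in unlabelled libraries, in wild-type and in Alkbh5-deficient cells. They were taken by symbol from the 27710 gene entries of 8 count files, and all 5 passed the low-count filter that left 14988 genes, 12015 of them protein-coding. They were selected on the fed-against-unlabelled difference in these libraries, so it is given below as a description with no test. The cells were lineage-depleted mouse bone marrow, which is enriched for blood stem and progenitor cells, grown in culture with added cytokines. WT cells, labelled with strain WT, gave 3 fed libraries and 1 unlabelled library. The same numbers came from cells labelled Vav-iCre+; Alkbh5fl/fl, in which a recombinase driven in blood cells removes a floxed Alkbh5. Feeding was with 100 µM s4U for 2 h, the unlabelled libraries carry the agent label None, and RNA of all 8 went through the same conversion chemistry. The sources used here give neither the age nor the number of animals.

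Fed s4U is taken up, phosphorylated and built into new RNA in the place of uridine, and the chemistry then recodes it so that it is read as cytosine. A read count sums old and new RNA, so it does not measure synthesis or decay. The word level below means the read count scaled to library size. ALKBH5 is an RNA demethylase that acts on N6-methyladenosine. The 5 genes share no pathway. Nup153 encodes a nucleoporin of the nuclear basket of the nuclear pore, Map3k2 the kinase MEKK2 upstream of MEK5 and ERK5, and Taf4b a subunit of the general transcription factor TFIID and a paralog of TAF4. Gk encodes glycerol kinase, which makes glycerol 3-phosphate from glycerol, and Tmem170b a small membrane protein of the same family as Tmem170.

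Gene counts per library ranged from 5723245 to 8615997, and reads outside genes took 37.6% and 38.3% of counts in fed replicate 1 of the Alkbh5-deficient and WT groups against 48.9% to 52.1% in the other 6 libraries. The labels were checked on Alkbh5, which had 1061 to 1479 counts in the 4 WT libraries and at most 1 count in each Alkbh5-deficient library. The 10 progenitor markers were detected in all 8 libraries, with a summed level of 5829 to 10675 CPM (counts scaled to a common library size) in fed libraries against 4541 and 5378 CPM in those without s4U (WT, then Alkbh5-deficient). Summed markers of monocytes and macrophages (934 to 2058 against 902 and 933 CPM), of mast cells with basophils and eosinophils (737 to 1709 against 602 and 503) and of megakaryocytes (142 to 391 against 134 and 134) also lay higher in every fed library, with 6 markers each. Fed and unlabelled sums overlapped for late neutrophils (520 to 2334 against 755 and 758 CPM), erythroid cells (201 to 398 against 375 and 363) and B cells (19.5 to 203 against 175 and 140). They overlapped too for T and NK cells (48.8 to 78.4 against 59.8 and 60.5 CPM) and for stroma and endothelium (106 to 1969 against 535 and 529). No marker was at 0 in all 8 libraries, and edgeR called 0 of them, where it called 4 of all 14988 tested genes (0.0267%). Taken singly, 14.7% of all tested genes had every fed library above both unlabelled ones. The difference between fed and unlabelled libraries was negative for 47.9% of all tested genes. It was negative for 2 of 10 progenitor, 1 of 6 monocyte and macrophage and 1 of 5 tested megakaryocyte markers. It was negative for 5 of 6 B cell markers and for 3 of 6 each in erythroid, T and NK, and stromal lists. For late neutrophils and for mast cells with basophils and eosinophils it was negative for 0 of 6 each. Both unlabelled libraries held Xist (9147 and 8770 counts) and the Y-linked Ddx3y (299 and 511 counts), whereas each fed library held RNA of 1 sex, replicate 2 of both genotypes being the female ones. Feeding therefore cannot be told apart from another source or pooling of cells, and in these bulk samples fewer cells of a type cannot be told apart from less RNA per cell. The part of cell composition in the values below was not tested.

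Promoters are shown because the genes were chosen for being lower together. RefSeq promoter entries (GRCm38.p6) matched 3 of the 5 genes, and the 250 bases before the RefSeq start are printed 5′ to 3′ on the gene's strand. That start is not always the GENCODE one: the 3′ end of the Nup153 window lies inside the GENCODE gene, and the Tmem170b window stops short of it. Capitals mark matches on either strand to any of 7 motifs searched. These were the NRF1 site, the E-box (CACGTG), the core of the cAMP response element (TGACGT), the GC box (GGGCGG), the CCAAT box, the TATA box (TATAAA) and the core bound by ETS factors (CCGGAAG). The windows are chr13:41605632-41605881 (plus strand) for Tmem170b, chrX:85776820-85777069 (minus strand) for Gk and chr13:46727850-46728099 (minus strand) for Nup153.
Tmem170b: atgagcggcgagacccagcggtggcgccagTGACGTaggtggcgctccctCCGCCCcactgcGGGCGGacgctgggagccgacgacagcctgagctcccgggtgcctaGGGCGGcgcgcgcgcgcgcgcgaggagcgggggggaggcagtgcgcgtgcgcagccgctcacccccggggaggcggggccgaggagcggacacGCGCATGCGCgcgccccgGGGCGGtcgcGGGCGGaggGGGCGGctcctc
Gk: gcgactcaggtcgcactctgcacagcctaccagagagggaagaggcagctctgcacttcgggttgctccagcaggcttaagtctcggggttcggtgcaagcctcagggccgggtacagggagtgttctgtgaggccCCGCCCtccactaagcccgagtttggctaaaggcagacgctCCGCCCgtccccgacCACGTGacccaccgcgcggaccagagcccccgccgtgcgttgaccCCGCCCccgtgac
Nup153: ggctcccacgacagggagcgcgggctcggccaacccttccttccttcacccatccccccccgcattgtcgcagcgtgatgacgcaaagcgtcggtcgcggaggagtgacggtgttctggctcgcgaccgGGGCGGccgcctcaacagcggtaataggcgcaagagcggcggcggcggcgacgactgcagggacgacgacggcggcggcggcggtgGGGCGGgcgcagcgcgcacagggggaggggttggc

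The GC box was the 1 motif found in all 3 windows, with 6 matches in Tmem170b, 3 in Gk and 2 in Nup153, and 32.7% of the 32851 promoters of this length hold it. Tmem170b alone held the NRF1 site, which 0.782% of promoters hold, and the cAMP response element core, held by 6.47%. Gk alone held the E-box, held by 6.02%. All 3 windows were rich in CpG, with 42, 21 and 37 CpG dinucleotides for Tmem170b, Gk and Nup153 against a median of 6. The promoters are thus GC-rich (80.4%, 67.2% and 73.2% G or C), which the transcripts described below are not.

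All 5 transcripts were lower in every fed library than in either unlabelled one. The mean of the 3 fed libraries was 46.5% to 62.0% of the unlabelled library of the same genotype. Every fed library lay below both unlabelled ones for 1974 of the 12015 tested coding genes (16.4%). It is a description here, since the genes were listed for it. The levels below are CPM scaled by the TMM method over the 8 libraries, and counting error is at its largest for the lowest count, 68 reads of Gk, with an exact 95% Poisson interval of 52.8 to 86.2.

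Nup153 was the most abundant of the 5 per length, at a mean of 20.6 CPM per kb of transcript in fed and 36.3 in unlabelled libraries. It stood at 227 CPM in the unlabelled WT library and at 117, 134 and 100.5 CPM in WT fed replicates 1 to 3. In Alkbh5-deficient cells it stood at 217 CPM without s4U and at 128, 127 and 148 CPM in fed replicates 1 to 3. Fed means were 117 ± 16.6 and 134 ± 11.7 CPM (SD, n = 3 each), 51.4% and 62.0% of the unlabelled libraries. The highest fed library reached 68.2% of the lowest unlabelled one, the narrowest gap among the 5 genes.

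Map3k2 was at 95.3 CPM in the unlabelled WT library and at 45.0, 54.3 and 41.0 CPM in the WT fed replicates. The Alkbh5-deficient libraries held 89.7 CPM without s4U and 48.0, 57.8 and 55.6 CPM with it. Fed means of 46.8 ± 6.83 and 53.8 ± 5.10 CPM (SD, n = 3 each) came to 49.1% and 60.0% of the unlabelled levels. As for Nup153, the fed share was lower in WT than in Alkbh5-deficient cells.

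Tmem170b was at 68.2 CPM in the unlabelled WT library and at 35.3, 41.4 and 27.6 CPM in the WT fed replicates. Its level in Alkbh5-deficient cells was 74.5 CPM unlabelled and 40.0, 37.9 and 38.7 CPM fed. The fed means, 34.8 ± 6.92 and 38.8 ± 1.03 CPM (SD, n = 3 each), were 51.0% and 52.1% of the unlabelled values. The Alkbh5-deficient fed replicates lay close together, while the WT ones spread over the widest relative range after those of Gk (coefficients of variation 19.9% and 20.6%).

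Gk, the X-linked member, was at 33.6 CPM in the unlabelled WT library and at 14.3, 19.3 and 13.2 CPM in the WT fed replicates. It was at 31.4 CPM in the unlabelled Alkbh5-deficient library and at 15.9, 16.3 and 15.8 CPM in the fed ones. Means of 15.6 ± 3.22 and 16.0 ± 0.28 CPM (SD, n = 3 each) were 46.5% and 50.9% of the unlabelled levels. Replicate 2, the female library, was the highest fed one in each genotype, by a wide margin in WT and a small one in Alkbh5-deficient cells. The part of the sex of the cells was not tested.

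Taf4b was the lowest of the 5 per length, at 2.60 CPM per kb in fed and 5.15 in unlabelled libraries. It was at 27.9 CPM in the unlabelled WT library and at 13.7, 15.2 and 16.1 CPM in the WT fed replicates. The Alkbh5-deficient values were 25.2 CPM unlabelled and 10.5, 11.4 and 13.5 CPM fed. Its fed means were 15.0 ± 1.25 and 11.8 ± 1.56 CPM (SD, n = 3 each), or 53.8% and 46.8% of the unlabelled levels. Taf4b thus had the lower fed share in Alkbh5-deficient cells, opposite in order to the other 4 genes, a difference given without a test because the contrast chose the genes. It was the 1 member whose fed genotype groups did not overlap, which held for 758 of 13342 tested genes (5.68%).

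**Figure D1:**
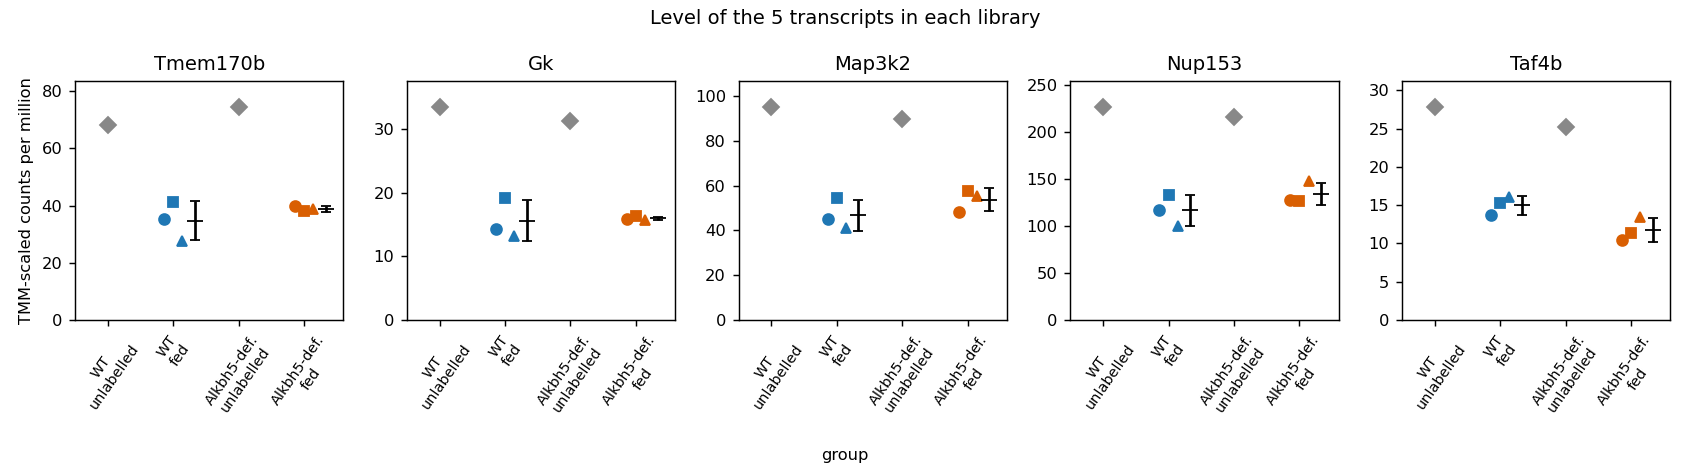
Level of each gene (y axis, TMM-scaled CPM, from 0) by group (x axis); diamonds are the single unlabelled libraries, circles, squares and triangles are fed replicates 1, 2 and 3, and black bars are mean ± SD of 3 fed libraries. Every fed library lies below both unlabelled libraries for all 5 genes, with the highest fed library at 60.7% to 68.2% of the lowest unlabelled one.

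The genes lie on 3 chromosomes of GRCm38. Tmem170b (ENSMUSG00000087370.3) spans chr13:41605907-41641355 on the plus strand and Nup153 (ENSMUSG00000021374.10) chr13:46679905-46727940 on the minus strand. Map3k2 (ENSMUSG00000024383.9) spans chr18:32163089-32236751 and Taf4b (ENSMUSG00000054321.7) chr18:14783245-14900359, both on the plus strand. Gk (ENSMUSG00000025059.16) spans chrX:85701937-85776819 on the minus strand. In the annotation 0 genes overlap Tmem170b, Map3k2 or Nup153, and the genes within the spans of Gk (2 on the other strand) and Taf4b (1 processed pseudogene) had at most 1 count in a library. No entry for reads shared between genes named any of the 5.

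Fitted over 8 libraries with genotype as a term, the log2 difference between fed and unlabelled libraries was -1.04 ± 0.18 for Gk, -0.99 ± 0.17 for Taf4b, -0.95 ± 0.16 for Tmem170b, -0.88 ± 0.15 for Map3k2 and -0.83 ± 0.15 for Nup153 (SE). Their median of -0.95 compares with 0.03 over all tested genes. Among the 12015 coding genes they ranked 107, 127, 164, 245 and 330 from the lowest, so 2.75% of coding genes were as low as Nup153 or lower. No gap set them off: Ranbp2, which encodes a nucleoporin of the cytoplasmic filaments of the pore, came next above Taf4b at -0.99, and Mtm1 and Gm17655 enclosed Nup153 at -0.83 each. Within WT the differences ran from -1.10 (Gk) to -0.89 (Taf4b) and within Alkbh5-deficient cells from -1.09 (Taf4b) to -0.69 (Nup153). The background of calls in this contrast was small in edgeR, whose quasi-likelihood test called 4 of 14988 genes (0.0267%, all higher) and 0 lower (0%), with 2933 genes at an unadjusted p under 0.05. DESeq2 called 267 of 8357 genes with an adjusted p as lower (3.19%) and 591 in either direction (7.07%), all 5 members among them, from which nothing is read because the contrast chose them.

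The 5 transcripts were long and rich in uridine. The choice of genes did not use these features directly, but the difference it used moved with them over all coding genes, as given below. Long transcripts rich in uridine are therefore favoured by the choice itself. Uridine made up 32.6% of the Tmem170b transcript, 31.8% of Map3k2, 30.8% of Gk, 27.0% of Taf4b and 26.8% of Nup153, against a median of 24.5% over the tested coding genes. The first 3 exceeded 99.1%, 97.9% and 95.9% of coding genes, and Taf4b and Nup153 exceeded 74.3% and 72.5%. The transcripts were 7168, 10684, 4340, 5149 and 6109 bases long in the same order, against a median of 3144, and all 5 exceeded at least 70.3% of coding genes. Each is the longest coding transcript of its gene in GENCODE M21, and which isoforms these cells express was not analysed here.

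Most of the length of Tmem170b and Map3k2 is 3′ UTR. Tmem170b has a coding sequence of 399 bases and a 3′ UTR of 6769, a share of 94.4% that 99.9% of coding genes stay below. Map3k2 has a 3′ UTR of 8403 bases (78.7% of the transcript), Gk one of 2449 and Taf4b one of 2231. Nup153 differs: its length lies in a coding sequence of 4389 bases, and its 3′ UTR of 1253 bases is near the median of 1139. The pentamer ATTTA, the core of AU-rich elements that many unstable mRNAs carry, occurred 30 times in the 3′ UTR of Map3k2, 16 times in Tmem170b, 7 in Gk, 6 in Taf4b and 2 in Nup153. Per kb of 3′ UTR that is 3.57, 2.36, 2.86, 2.69 and 1.60, against a median of 1.36, so density stood less far out than the total. The 5-base GGACT, a common context of N6-methyladenosine, was below the median density of 1.05 per kb in 4 of the 5 transcripts (0.46 in Gk to 0.97 in Taf4b) and above it in Nup153 (1.31).

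To show this sequence, the 30-base stretch of the 3′ UTR with the most ATTTA pentamers, the first where several tie and moved to centre them, is printed as DNA, 5′ to 3′ on the gene's strand, with the pentamers in capitals. It lies at chr13:41635149-41635178 (plus strand) in Tmem170b, chrX:85704177-85704206 (minus strand) in Gk and chr13:46680292-46680321 (minus strand) in Nup153, all in GRCm38, in the transcripts of GENCODE M21. Windows of Map3k2 and Taf4b are not shown. A match describes the letters and not a site in use.
Tmem170b: ctgtgttgttATTTAATTTAtgtgaaaacc
Gk: atcctccagaaacATTTAatttttttttaa
Nup153: ttcttaaagttgaATTTAttggcttttctg

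Over all coding genes the s4U difference moved with uridine content, GC content and length. Divided by uridine content into 5 bins of 2403, the tested coding genes had a median log2 difference of 0.28 in the bin with the least uridine, 0.17, 0.03 and -0.10 in the next, and -0.27 in the bin with the most. Tmem170b, Gk and Map3k2 lie in the last of these bins and Nup153 and Taf4b in the one before. By GC content the range was wider, from 0.33 in the bin with the most G and C to -0.37 in the bin with the least, which holds Tmem170b, Gk and Map3k2. By transcript length the medians ran from 0.30 in the shortest bin to -0.20 in the longest, which holds all members but Gk. All 5 genes lay within the lowest 10% of their uridine bin, which ended at -0.62 for Nup153 and Taf4b and at -0.76 for the other 3. The genes were chosen on this same difference, so nothing is read from their place within the bins.

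**Figure D2:**
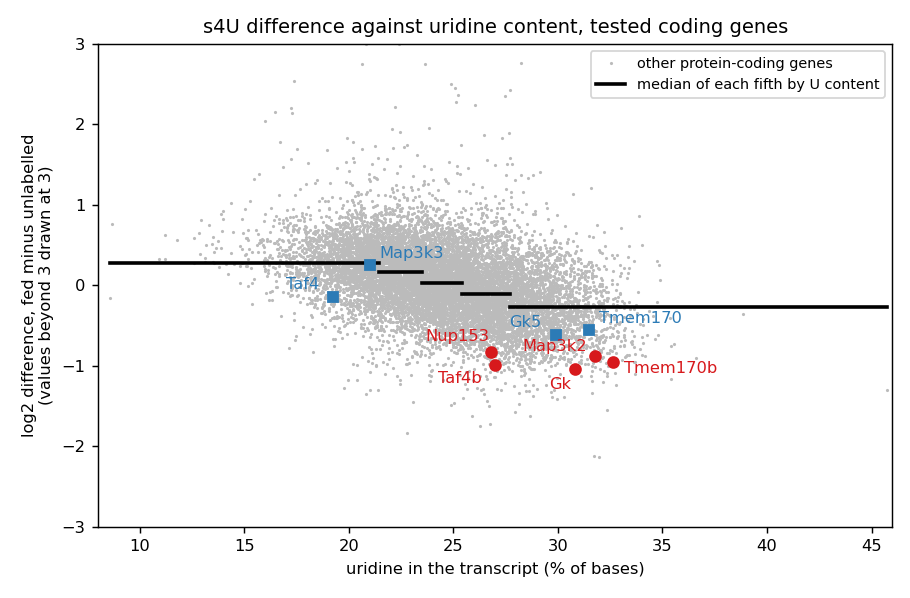
Log2 difference between fed and unlabelled libraries (y axis) against the uridine content of the transcript (x axis, percent of bases) for 12015 tested coding genes (grey), the 5 genes (red) and paralogs (blue squares); black lines are medians of 5 bins by uridine content. The medians run from 0.28 down to -0.27, and the 5 genes, which were chosen on this difference, lie below them, at -0.83 to -1.04.

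A smooth trend with a sequence feature was also removed from each library before the fit, and the genes differed in how far this moved them. For Tmem170b, Gk and Map3k2 the difference shrank to -0.50, -0.55 and -0.31 with the trend in GC content removed, and to -0.35, -0.62 and -0.37 with that in uridine content removed. Their ranks from the lowest among coding genes then lay between 513 (Gk, uridine) and 1892 (Map3k2, GC). Nup153 kept -0.67 under both corrections and Taf4b -0.82, with ranks of 261 and 386 for Nup153 and of 117 and 171 for Taf4b. With the trend in transcript length removed the values were -0.91 for Gk, -0.83 for Taf4b, -0.72 for Tmem170b, -0.63 for Nup153 and -0.58 for Map3k2. The uncorrected value was over 1.5 times the corrected one for Map3k2 in all 3 cases (1.51 times for length, 2.38 for uridine and 2.87 for GC), and for Tmem170b and Gk with GC or uridine. The sign stayed negative for all 5 genes under each correction. The genes were chosen for a negative difference in these same libraries, so signs and ranks are given as a description.

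**Figure D3:**
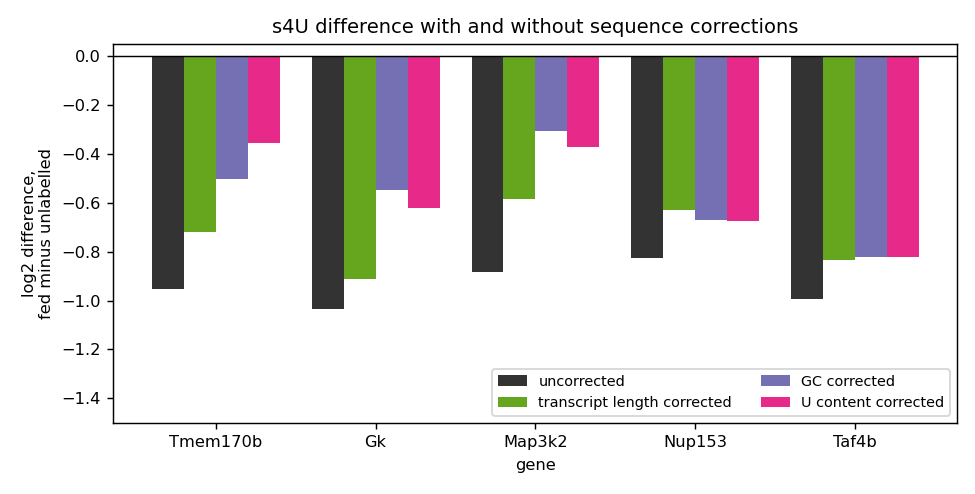
Log2 difference between fed and unlabelled libraries (y axis) for each gene (x axis), uncorrected and with the per-library trend in transcript length, GC content or uridine content removed. Taf4b and Nup153 stay at or below -0.63 throughout, whereas Map3k2 reaches -0.31 with the GC trend removed. The genes were chosen on this difference.

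Paralogs offer a comparison within a family. The members were chosen for a low difference and the relatives were not, so the gaps between them are a description. Map3k3, the closest relative of Map3k2, has 21.0% uridine, 54.6% G or C and 3450 bases, against 31.8%, 39.4% and 10684 for Map3k2. The log2 s4U difference of Map3k3 was 0.25 ± 0.23 (SE, edgeR adjusted p = 0.568). Taf4 has 19.2% uridine, 58.7% G or C and 4416 bases, against 27.0%, 45.7% and 5149 for Taf4b. Taf4 was at -0.14 ± 0.15 (SE, edgeR adjusted p = 0.644), against -0.99 for Taf4b. Both gaps narrowed with the GC or uridine trend removed, when Taf4 was at -0.44 and -0.41 against -0.82 for Taf4b, and Map3k3 at 0.04 under both against -0.31 and -0.37 for Map3k2. Map3k2 thus stood at 50.9% and 45.4% of Map3k3 per kb in the WT and Alkbh5-deficient libraries without s4U, and at 15.2% to 29.5% in the fed ones. The relatives with much uridine had few reads. Gk5 (29.9% uridine) was at -0.61 ± 0.51 and Tmem170 (31.5%) at -0.56 ± 0.39 (SE, edgeR adjusted p = 0.535 and 0.450), with 7 to 40 and 8 to 27 counts per library. Gk2, an intronless gene, had 0 counts in all 8 libraries.

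The WT fed replicates differed among themselves, and 4 of the 5 genes did so in the same order. There, replicate 2 was above the mean of the 3 fed libraries by 0.20 to 0.32 (log2) for Tmem170b, Gk, Map3k2 and Nup153, and replicate 3 was the lowest, at -0.18 to -0.31. Taf4b went the other way in replicate 3, at 0.11. The trend of all coding genes with uridine content was strongest in the same WT replicate 3, over genes of 1 library that are not independent. There the Spearman rho between uridine content and the deviation from the gene mean over all 8 libraries was -0.49. This rho was -0.10 and 0.06 in WT replicates 1 and 2, -0.01, -0.21 and 0.18 in the Alkbh5-deficient ones, and 0.41 and 0.42 in the unlabelled libraries. In Alkbh5-deficient cells the 5 genes stayed within -0.16 and 0.20 of their mean, and no order of the replicates was shared by Tmem170b, Gk, Map3k2 and Nup153. The part of the uridine trend in these values was not tested beyond the corrections.

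**Figure D4:**
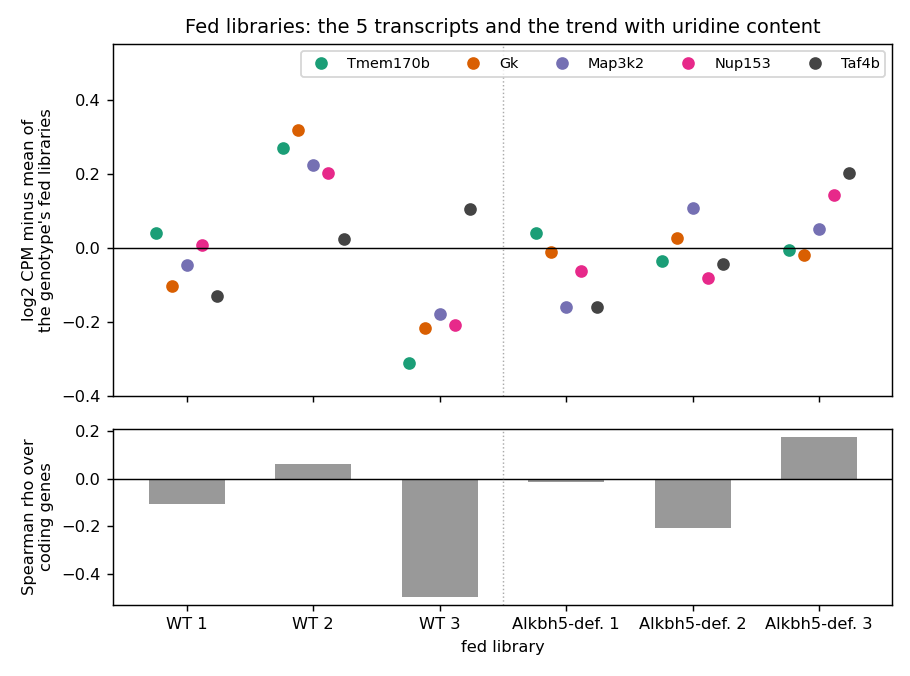
Upper panel: log2 CPM of each gene in each fed library minus the mean of the 3 fed libraries of that genotype; lower panel: Spearman rho over 12015 coding genes between uridine content and the deviation from the gene mean in that library. WT replicate 3 has the lowest rho, -0.49, and the lowest level of 4 of the 5 genes, with Taf4b at 0.11.

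The genotype contrast asked whether loss of ALKBH5 altered these levels in fed cells, and it was not used to choose the genes. None of the 5 passed. The log2 difference between Alkbh5-deficient and WT fed libraries was 0.20 ± 0.18 for Map3k2, 0.19 ± 0.17 for Nup153, 0.15 ± 0.19 for Tmem170b, 0.02 ± 0.22 for Gk and -0.35 ± 0.21 for Taf4b (SE). Without WT replicate 3 the values fell to 0.12 for Map3k2, 0.10 for Nup153 and 0.02 for Tmem170b, and without WT replicate 2 they were 0.33, 0.31 and 0.30. Unadjusted p-values from the edgeR fit over all genes were 0.301, 0.280, 0.457, 0.919 and 0.133, and the adjusted p was 1.00 for each. The test called 1 of 13342 genes (0.0075%), Alkbh5 itself, with 151 genes at an unadjusted p under 0.05, and DESeq2 called 2. Taf4b was lower in 3 of 3 same-numbered pairs and its groups did not overlap, as for 5.68% of tested genes. Map3k2 was higher in 3 of 3 pairs, Nup153, Tmem170b and Gk in 2 of 3.

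The unlabelled pair, with 1 library per genotype, gave counting intervals and no test. The Alkbh5-deficient level was 109% of WT for Tmem170b (95% interval from an exact binomial count, 97.4% to 123%), 95.3% for Nup153 (89.3% to 102%) and 94.1% for Map3k2 (85.1% to 104%). Gk was at 93.5% (78.8% to 111%) and Taf4b at 90.3% (74.7% to 109%). All 5 intervals include equal levels, and they cover counting error only. Map3k2, Nup153 and Gk were on the lower side here and on the higher side in fed cells, within these errors, while Tmem170b and Taf4b kept their side.

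**Figure D5:**
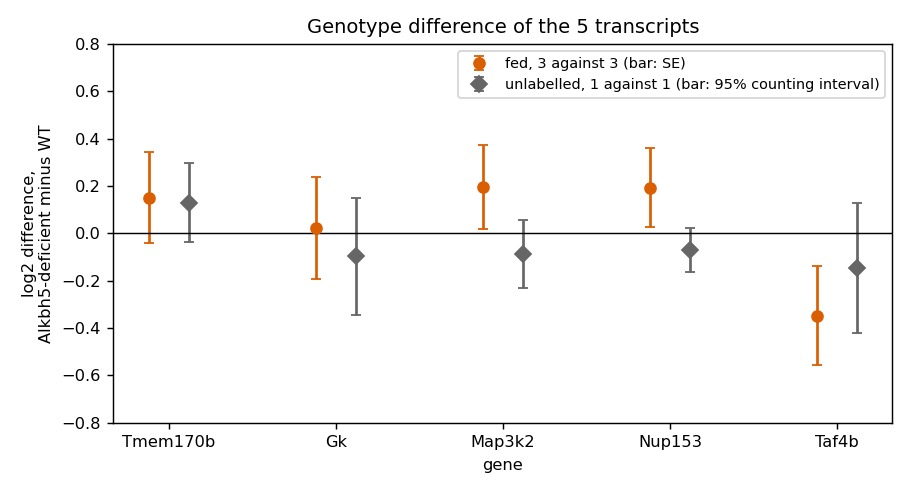
Log2 difference between Alkbh5-deficient and WT libraries (y axis) for each gene (x axis); circles are the fed libraries, 3 against 3, with bars of 1 SE, and diamonds the unlabelled pair with 95% counting intervals. Taf4b is the lowest in fed libraries, at -0.35, and every diamond's interval includes 0.

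Other genes of the same complexes and pathways did not pass in either contrast by edgeR, and their medians lay near that of all genes. Not passing does not set them apart from the 5 members, since edgeR called 0 of all 14988 genes lower in the s4U contrast. By genotype it called Alkbh5 alone. Of 28 tested nuclear pore genes other than Nup153, 16 had a negative s4U difference, with a median of -0.07, against 0.03 and 47.9% negative over all tested genes. By DESeq2, 5 of the 28 passed, 4 lower (Ranbp2, Ahctf1, Nup98 and Nup160, at log2 differences of -0.99, -0.74, -0.67 and -0.54) and Nup210 higher at 0.66. Over the 8357 genes with a DESeq2 adjusted p the shares were 3.19% lower and 7.07% in either direction. The list sizes here and below count genes tested by edgeR, some of which can lack a DESeq2 adjusted p. Ranbp2 was at 734 and 703 CPM in the unlabelled libraries and at 266 to 474 CPM in fed ones. Nup98, for a nucleoporin of the central channel, was at 250 and 225 CPM unlabelled and at 123 to 165 CPM fed. Of these 28 genes none passed in edgeR, where the smallest adjusted p was 0.165 and 8 had an unadjusted p under 0.05, against 2933 of all 14988 tested genes.

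Among 15 other TFIID genes the median s4U difference was -0.10, 8 were negative, and 0 passed in edgeR or DESeq2, with 3 at an unadjusted edgeR p under 0.05. Taf10 had the smallest p, at 0.56 ± 0.18, and Taf2 followed at -0.43 ± 0.17 (SE, edgeR adjusted p = 0.171 and 0.220), so TFIID subunits lay on both sides. The 17 other genes of the MEKK2 kinase module, which holds kinases around MEK5 and ERK5 and their MEF2 targets, had a median of -0.11, with 10 negative and 0 past the edgeR threshold. DESeq2 called 2 of them lower, the transcription factor genes Mef2a at -0.87 and Mef2c at -0.53, and 5 had an unadjusted edgeR p under 0.05, beside the same 3.19% and 2933 of 14988 over all genes.

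For 21 other genes of glycerol metabolism the median was 0.08, and the smallest p belonged to genes on the higher side, Tkfc at 0.78 ± 0.26 and Agpat1, an acyltransferase gene of phospholipid synthesis, at 0.40 ± 0.14 (SE, edgeR adjusted p = 0.176 and 0.186). Of the 21 genes, 10 were negative. The 15 other genes of endoplasmic reticulum shaping had a median of -0.05, led by Lnpk at -0.68 ± 0.19 and Atl2 at -0.69 ± 0.21 (SE, edgeR adjusted p = 0.165 and 0.170), which encode proteins of tubule junctions and membrane fusion. Neither list had a gene past the threshold in edgeR or DESeq2, though Tkfc had no adjusted p in DESeq2. In each, 4 genes had an unadjusted edgeR p under 0.05, against 2933 of all 14988 tested genes. In the genotype contrast 0 genes of the 5 lists passed in either tool, and 0 had an unadjusted edgeR p under 0.05, against 151 of all 13342 tested genes.

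Genes of the most similar pattern were found by the root mean square (RMS) difference of centred log2 CPM over the 8 libraries, among 9741 other coding genes of at least 5 CPM. The mean profile of the 5 genes was closest to Mat2a, the S-adenosylmethionine synthetase gene (RMS difference 0.08, log2 s4U difference -0.86), to Nmt2, an N-myristoyltransferase gene (0.09, -0.84), and to Dop1a (0.09, -0.83), where the median over all compared genes was 0.50. Mat2a, Nmt2 and Dop1a had 29.7%, 28.0% and 26.8% uridine, also above the coding median of 24.5%. Nup153 was closest to Mat2a, Usp37 and Sepsecs (0.07 each), Map3k2 to the Mediator gene Med13 (0.08), and Tmem170b to Cbwd1 (0.09). The nearest genes to Gk were Nmt2 and Ell2, an elongation factor gene (0.11 each, Ell2 at an s4U difference of -1.06). Taf4b had no neighbour as close: Rrm2b, a ribonucleotide reductase subunit gene, came first at 0.19. The same held among the 5 genes, where the 4 pairs with Taf4b differed by 0.25 to 0.32 and the other 6 by 0.09 to 0.14. Over the fed libraries alone, with each gene centred on its fed mean, these ranges were 0.29 to 0.36 and 0.09 to 0.13. No distance to other coding genes is given for the fed libraries alone, so nothing is read from these ranges. All distances over the 8 libraries include the fed-against-unlabelled difference on which the genes were chosen, so no shared regulation is read from them.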

How the data were processed

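RNA was measured as read counts per gene in 8 libraries, 1 file each, deposited by the authors as raw counts. The submitters' processing notes name HISAT2, STAR, HTSeq, cutadapt, Picard and DESeq2, with the builds GRCm38 and mm10, but the sources used here give no version, order or strand setting. Entries naming no single gene (928 per file) stayed out of library sizes and tests. Of 27710 symbols, 27070 matched GENCODE M21.

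The tests were edgeR 4.0.16 quasi-likelihood fits under R 4.3.3 (TMM, default low-count filter by group, robust estimation, Benjamini-Hochberg adjustment, threshold 0.05): s4U over 8 libraries with genotype as a term, genotype over the 6 fed libraries. An SE is the log2 difference divided by the root of F. Log2 CPM used a prior count of 2. Trends with transcript length, GC and uridine content were removed as edgeR offsets from a lowess curve per library (span 0.3); the uridine correction was added after seeing the data. DESeq2 1.42.0, other filters, RLE factors, the replicate block and each library left out were alternatives.

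The members and gene lists were chosen with earlier results of these data known. Named were the 5 members, their relatives, the 2 list genes of smallest p where none passed (and, chosen after their values were seen, those DESeq2 called), and the 3 closest patterns, of which the first are printed. Same-numbered fed libraries deviated together (r = 0.62, 0.26 and 0.16 for numbers 1 to 3), so the numbers were taken to pair them, although WT 2 with Alkbh5-deficient 3, and the reverse, reached 0.29. No 2 libraries agreed within sampling noise (chi-square per gene at least 2.93). Whether replicates are separate animals is not in the labels, and p-values then reflect only variation among these samples, which may be technical. The fits were also tested on simulated data with known changes.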

Additional observations from a re-analysis of the deposited data

How the results depend on the processing

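The fed-against-unlabelled difference of the 5 genes was negative under all 17 alternatives each, a description, since the genes were chosen for it. Beyond the replicate SD it moved under sequence corrections alone. With the length trend removed it was -0.72 for Tmem170b, -0.58 for Map3k2, -0.63 for Nup153 and -0.83 for Taf4b. With the GC trend removed it was -0.50 for Tmem170b, -0.55 for Gk, -0.31 for Map3k2 and -0.82 for Taf4b, and with the uridine trend removed -0.35, -0.62, -0.37 and -0.82. Leaving out 1 library gave at most -0.69 (Nup153, without the unlabelled WT library) and at least -1.12 (Gk, without WT fed replicate 2).

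The genotype difference of the 5 genes passed under none of 65 alternatives (adjusted p from 0.939 to 1.00). That of Gk, near 0, turned to -0.0062 in the fit over 8 libraries and to -0.095 with the uridine trend removed, and with 1 library left out it ran from -0.075 (without WT replicate 3) to 0.21. That of Nup153 was also 0.11 without Alkbh5-deficient replicate 3. With the uridine trend removed Tmem170b was at 0.0077 and Map3k2 at 0.047. With the replicate block it was 0.04 for Gk and -0.36 for Taf4b, 1 gene passed, and the block changed no call. No block was fitted in the s4U contrast, where the unlabelled libraries carry no replicate number. The genes called in the genotype contrast were 2 without the low-count filter and 2 by DESeq2, against 1.

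In the s4U contrast the count of 4 became 37 without the low-count filter, 591 by DESeq2, 1 with the length trend removed, and 0 within WT and 0 within Alkbh5-deficient cells, where fewer libraries bear on the term. With 1 library left out it ran from 0 to 2, and it was 0 without either unlabelled library or replicate 3 of either fed group. Of the pathway genes DESeq2 called 7 and edgeR 0. Apart from these, the cause of the changes was not tested. The unlabelled arm has 1 library per genotype, which limits every fed-against-unlabelled value, as does the depth of 68 to 1987 counts per gene and library.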

Other observations

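The ratio of Taf4b to its paralog Taf4 within a library was chosen after the values were seen. Per kb of transcript Taf4b stood at 32.4%, 33.7% and 31.5% of Taf4 in WT fed replicates 1 to 3 and at 19.2%, 19.8% and 22.8% in the Alkbh5-deficient ones. The means were 32.5% ± 1.10 and 20.6% ± 1.95 (SD, n = 3 each), given without a test because the ratio was picked on these values. In the unlabelled pair, with 1 library each, the ratio was 48.0% in WT and 46.1% in Alkbh5-deficient cells. Taf4 itself was at 49.0 ± 2.01 CPM in Alkbh5-deficient and 39.6 ± 3.96 CPM in WT fed libraries (SD, n = 3 each), with a log2 difference of 0.30 ± 0.16 (SE) that did not pass (edgeR adjusted p = 1.00).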
